A study of Mus musculus with 15 samples.

Results

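Genes of the immunoglobulin loci were followed through 15 RNA sequencing libraries of mouse OT-I CD8+ T cells, which carry a T cell receptor for an ovalbumin peptide. The genes described here, called members below, were those that GENCODE M21 annotates as immunoglobulin constant, variable, joining or diversity genes, together with Jchain, if they reached at least 10 counts summed over the 15 libraries. This kept 184 of 265 annotated genes, out of 55536 genes matched in the table. The members were 11 of 13 constant genes, 160 of 218 variable segments, 11 of 14 joining segments, 1 of 19 diversity segments and Jchain. The members were chosen by their summed count, so the presence of a count in some library is a description and not a result. Just inside the threshold, Ighd4-1, Ighv2-6-8 and Ighv8-13 had 10 counts, and just outside it Ighv1-12, Ighv1-7, Ighv14-1 and Ighv3-1 had 9.

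The libraries fell into 3 groups of 5. Naive libraries came from CD8+ T cells of OT-I mice that were not used for transfer. Ag libraries came from OT-I cells moved into wild-type C57BL/6J recipients that received the SIINFEKL peptide and a rat IgG control, and Ag+Costim libraries from recipients that received the peptide with agonist antibodies to OX40 (CD134) and 41BB (CD137). Per the labels, transferred cells were taken 4 days later, while the study's methods give a shorter time and describe a sort for CD8, the congenic marker CD45.1 and the receptor chains Vα2 and Vβ5 from spleen and lymph nodes. The methods describe OT-I mice that lack Rag1 or Rag2, without which antigen receptor genes are not rearranged, but the labels name no Rag allele and do not say which mice supplied each library. Wild-type recipients have B cells of their own. The methods give 1 age range for mice of both sexes and no age by library.

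Total counts ranged from 4865952 to 25280667 per library. Ag 3 had the lowest total, with 16.9% of its sequenced reads counted, against 37.4% to 53.6% elsewhere. The counted share was 51.9 to 52.7% in Ag+Costim and 52.4 and 53.6% in Ag 2 and Ag 5. It was 38.2 to 46.8% in Naive and 37.4 and 44.3% in Ag 1 and Ag 4. Genes with a count numbered 23891 to 25410 in Ag+Costim and 21705 and 20949 in Ag 2 and Ag 5. They numbered 30152 to 33853 in Naive and 37412, 44408 and 31845 in Ag 1, 3 and 4. In Naive 5 a list of 9 myeloid and dendritic cell markers summed to 1057 CPM (counts per 1000000 counts of the library), against 21.8 to 199 in the other Naive libraries. Of other listed markers, Prdm1 was 23.9 CPM in Naive 5 and 1.82 to 8.42 in Naive 1 to 4. Eomes was 86.1 against 19.8 to 36.3. In Ag 1 and Ag 4, Prdm1 (1.15 and 2.37) and Eomes (22.2 and 25.5) were inside or below those Naive ranges. Ag 2, 3 and 5 had 14.8 to 19.3 and 75.2 to 88.3. Irf4 differed, with 11.1 and 24.2 CPM in Ag 1 and Ag 4 against 2.45 to 9.99 in Naive 1 to 4. Any link to the member results was not tested. Since Ag 3 and Naive 5 stood apart, results are also given without them. The 8 CD8 T cell markers summed to at least 6357 CPM in every library, and none was without a count in any group. Lane 2 held the Ag libraries with Ag+Costim 1, 2 and 3, and lane 3 held the Naive libraries with Ag+Costim 4 and 5, so no lane held both Ag and Naive. In bulk libraries, fewer cells of a type and less RNA per cell cannot be told apart.

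An immunoglobulin heavy chain is encoded by 1 rearranged variable, diversity and joining segment spliced to a constant gene, and a light chain, kappa or lambda, by a variable and a joining segment spliced to its constant gene. Ighm and Ighd encode the constant regions of IgM and IgD, which a mature B cell places on its surface, and class switching exchanges them for an Ighg or Igha gene. Each heavy constant gene can end in a secreted tail or in membrane exons, and the choice moves to the secreted tail when a B cell becomes an antibody-secreting plasma cell. Jchain encodes the joining chain that links secreted IgM and IgA into polymers. Unrearranged constant genes can also be transcribed without any variable segment, and such germline transcripts of the Ighm locus are known in lymphocytes other than B cells.

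The 3′ coding ends of Ighm show what sets its secreted and membrane transcripts apart, which carries 1 of the results below. Both lines start with the last 20 of 1305 coding bases that the transcripts share, and capitals mark the coding bases of each transcript alone, 59 in the secreted Ighm-201 and 122 in the membrane Ighm-202 (GENCODE M21 on GRCm38, chr12:113420870-113420948 and, across an intron, chr12:113418829-113420948, minus strand).
Ighm-201: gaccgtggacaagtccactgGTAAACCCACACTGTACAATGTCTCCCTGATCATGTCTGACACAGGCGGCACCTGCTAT
Ighm-202: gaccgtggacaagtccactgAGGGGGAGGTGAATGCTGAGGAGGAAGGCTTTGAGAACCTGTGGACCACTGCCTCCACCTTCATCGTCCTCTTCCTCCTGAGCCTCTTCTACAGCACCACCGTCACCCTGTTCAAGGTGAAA

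Members with near-identical coding sequence share reads, so the separate counts of such pairs are uncertain. Stretches of 90 coding bases from 3 pairs show how few bases a 50-base read (the length in the sequencing core's sheet) can use, with capitals at the bases that differ inside each pair: 7 in Iglc2 and Iglc3 (chr16:19198743-19198832 and chr16:19065572-19065661, minus strand), 3 in Iglv1 and Iglv2 (chr16:19085017-19085106 and chr16:19260401-19260490, minus strand) and 4 in Igkv1-110 and Igkv1-117 (chr6:68271178-68271267 and chr6:68121738-68121827, plus strand).
Iglc2: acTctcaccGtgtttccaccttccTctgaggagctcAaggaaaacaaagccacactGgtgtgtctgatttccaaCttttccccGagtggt
Iglc3: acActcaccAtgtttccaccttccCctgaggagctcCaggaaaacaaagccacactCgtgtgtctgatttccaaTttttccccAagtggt
Iglv1: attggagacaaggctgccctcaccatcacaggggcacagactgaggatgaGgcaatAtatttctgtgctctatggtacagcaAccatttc
Iglv2: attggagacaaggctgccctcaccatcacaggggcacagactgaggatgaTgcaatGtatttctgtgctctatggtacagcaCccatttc
Igkv1-110: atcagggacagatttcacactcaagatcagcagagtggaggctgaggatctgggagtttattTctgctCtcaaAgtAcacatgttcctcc
Igkv1-117: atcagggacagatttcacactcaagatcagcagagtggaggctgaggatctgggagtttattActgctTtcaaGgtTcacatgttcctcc
Over whole coding sequences, identity was 96.2% for Iglc2 and Iglc3, 96.3% for Iglv1 and Iglv2 and 97.2% for Igkv1-110 and Igkv1-117, while Iglc1 was 73.4% and 74.5% identical to Iglc2 and Iglc3. Of 160 variable members, 133 shared at least 1 word of 50 bases with another immunoglobulin gene, and 119 shared over 10% of theirs. Sums over a class of segments do not depend on how reads were divided inside it.

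Constant genes held most member counts in every library, and Ighm alone most of those. Ighm (chromosome 12, 113418558 to 113422730, minus strand) was high in all 15 libraries, Naive included. Naive 1 to 5 had 919.5, 807, 1005, 887 and 546 CPM, Ag 1 to 5 had 1154, 539, 667, 1245 and 587, and Ag+Costim 1 to 5 had 569.7, 518, 665, 444 and 553. The groups overlapped, with Ag 2 and Ag 5 at the level of Ag+Costim. Ighm passed no test between groups. Its log2 fold change was 0.08 (SE 0.20, edgeR FDR 0.821) for Ag against Naive, -0.52 (SE 0.20, FDR 0.128) for Ag+Costim against Ag and -0.44 (SE 0.20, FDR 0.0837) for Ag+Costim against Naive. The last was called without Naive 5 (log2 fold change -0.53) and in a fit of those 10 libraries alone. Ighm made up 91.8 to 93.6% of member counts in Naive, 44.2 to 94.3% in Ag and 72.7 to 84.6% with costimulation. The lowest share was in Ag 3 (3248 of 7342 counts, 44.2%, 95% Wilson interval 43.1 to 45.4).

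Ighd (chromosome 12, 113406604 to 113416324, minus strand), the IgD constant gene transcribed downstream of Ighm, differed more between libraries. Naive 1 to 5 had 53.7, 33.3, 66.9, 65.4 and 11.9 CPM, Ag 1 to 5 had 53, 4.86, 134, 67.1 and 5.67, and Ag+Costim 1 to 5 had 5.01, 3.49, 7.15, 3.33 and 8.06. Every Ag+Costim library was below every Naive library, while Ag 2 and Ag 5 lay inside the Ag+Costim range and Ag 1, 3 and 4 above it. Ighd was lower in Ag+Costim than in Naive (log2 fold change -2.92, SE 0.77, edgeR FDR 0.013), also without Ag 3 and Naive 5 (log2 fold change -3.09, FDR 0.00289) and within lane 3 (log2 fold change -2.85, FDR 0.0303). With lane as a term the call was lost (FDR 0.0935), with a log2 fold change of -2.84. It was not called against Ag (log2 fold change -3.19, SE 0.78, edgeR FDR 0.0807) or between Ag and Naive (log2 fold change 0.27, SE 0.71, edgeR FDR 0.82), where the sign turned without Ag 3 and Naive 5. Nearly all Ighd counts were on the membrane transcript Ighd-202, and Ighd-201, the secreted form, had 20 counts in all Naive libraries, 2 in Ag and 3 in Ag+Costim.

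**Figure D1:**
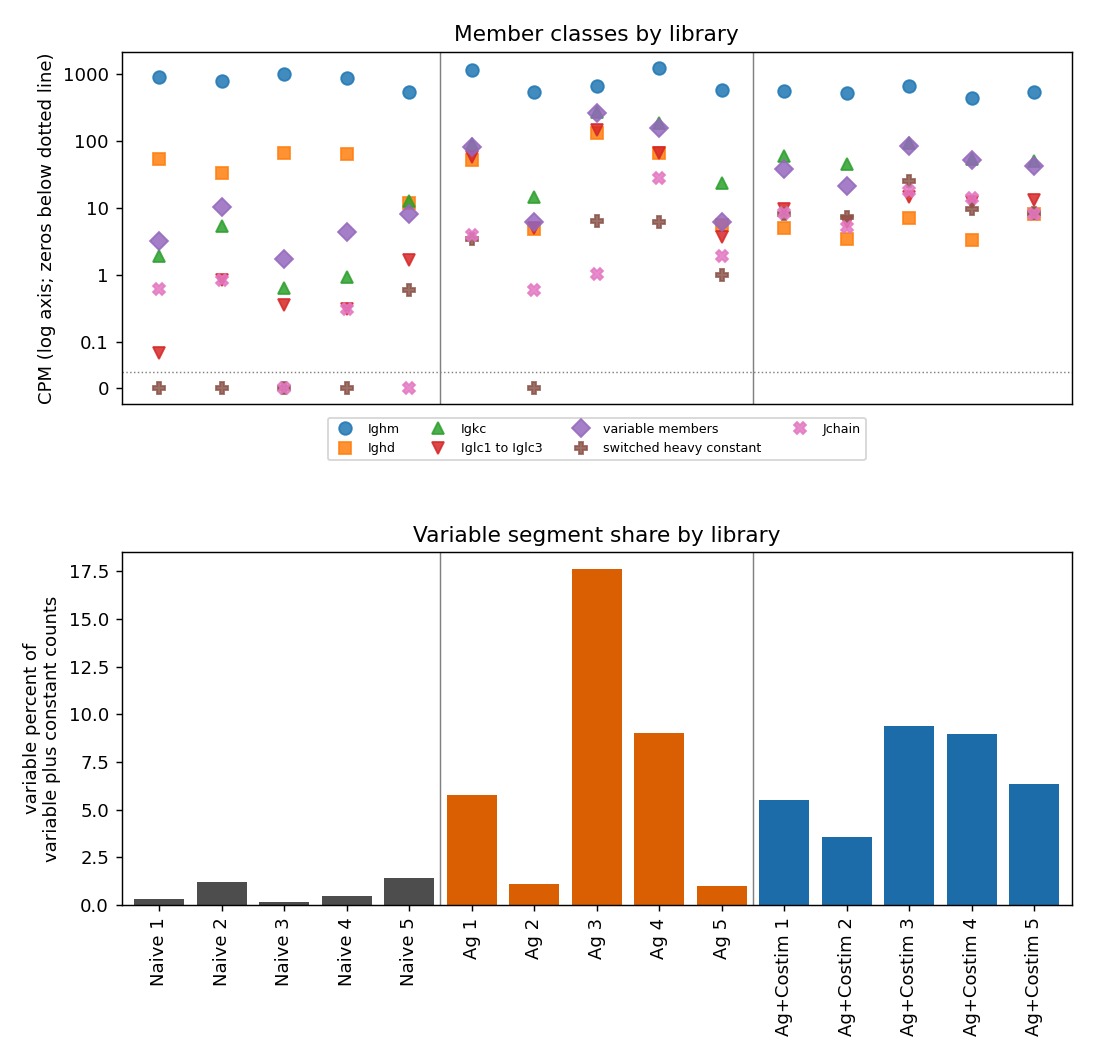
Upper panel, CPM (log axis, zeros below the dotted line) of Ighm, Ighd, Igkc, the lambda constant genes, all variable members, the switched heavy constant genes and Jchain in each of the 15 libraries. Lower panel, the percent of variable plus constant counts on variable members, from 0.162 to 1.41% in Naive to 17.6% in Ag 3, while Ighm is the highest class in every library.

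The secreted share of Ighm was higher with costimulation. Ighm-201, which ends in the secreted tail, held 23.4, 23.7, 22.1, 23.8 and 27.7% of Ighm transcript counts in Naive 1 to 5. It held 19.6, 33, 18.9, 25.3 and 32.8% in Ag 1 to 5 and 32.8, 33.1, 38.9, 43.2 and 36.5% in Ag+Costim 1 to 5. Ag+Costim lay above Naive in every library, and Ag 2 and Ag 5 sat at the lower edge of the Ag+Costim range while Ag 1 and Ag 3 were below all Naive libraries. The means were 24.2% ± 2.07 in Naive, 25.9% ± 6.86 in Ag and 36.9% ± 4.32 with costimulation (SD, n = 5). Ag+Costim exceeded Naive by 12.7 percentage points (95% interval 8.1 to 18.1, exact two-sided permutation p = 0.00794, the smallest that 5 against 5 can give, adjusted p = 0.0238 over the 3 comparisons). It exceeded Ag by 11 points (interval 1.79 to 19.3, exact permutation p = 0.0238, adjusted 0.0357). Ag and Naive differed by 1.76 points (interval -5.64 to 9.51, exact permutation p = 0.571), which did not pass. The excess over Ag lost its adjusted call when any one of 7 of the 10 libraries was left out (9.23 to 11.9 points). Within lane 2 it was 9.03 points (3 against 5 libraries, exact permutation p = 0.107), and within lane 3 the excess over Naive was 15.7 points (2 against 5, exact permutation p = 0.0952, the smallest that design allows). Transcript counts are the authors' estimates from unstranded reads of 50 bases, most of which fall on sequence that the 2 transcripts share. The secreted share split the libraries as the share of reads counted did. Both were higher in every Ag+Costim library, Ag 2 and Ag 5 than in any Naive library, Ag 1, Ag 3 or Ag 4. The former libraries also had fewer genes with a count. Whether the secreted share depends on these measures was not tested.

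Switched heavy constant genes were nearly absent from Naive and low in all groups. Summed over Igha and the 4 Ighg members, Naive 1 to 5 had 0, 0, 0, 0 and 0.593 CPM, Ag 1 to 5 had 3.44, 0, 6.37, 6.2 and 1.0, and Ag+Costim 1 to 5 had 8.11, 7.3, 25, 9.64 and 8.32. Each Ag+Costim library was above each Ag and Naive library. A sum over members is a description and was not tested. The switched genes held 1.38 to 3.59% of heavy constant counts in Ag+Costim and at most 0.789% in Ag.

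Igha (chromosome 12, 113254830 to 113260236, minus strand), the IgA constant gene, had 0 counts in every Naive library. Ag 1 to 5 had 0.954, 0, 1.03, 0.306 and 0 CPM and Ag+Costim 1 to 5 had 2.73, 2.1, 9.15, 3.52 and 7.67. The Ag+Costim libraries did not overlap with either of the other groups. Igha was called higher in Ag+Costim than in Naive (edgeR FDR 0.00335), also under all 25 alternatives that kept the gene. With 0 Naive counts it could pass the count filter only through transferred libraries, so these calls give no support by themselves. Against Ag its log2 fold change was 3.75 (SE 1.01, FDR 0.0826), which did not pass except with DESeq2, without Ag 2, without Ag 5, or without both Ag 3 and Naive 5. The transcripts differed in their end. The secreted Igha-201 held 370 counts in Ag+Costim and 4 in Ag, and the membrane Igha-202 12 and 15. Taking 3 counts for all Naive libraries together as the floor, Igha-201 was at least 131-fold higher in Ag+Costim.

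The IgG genes varied from library to library. Ighg2b (chromosome 12, 113302965 to 113307933, minus strand) had 2.98, 0.854, 6.15, 3.46 and 0 CPM in Ag+Costim 1 to 5, 0.954, 0, 2.47, 3.44 and 0 in Ag 1 to 5, and a count in Naive 5 alone among Naive libraries. Ighg2c (chromosome 12, 113285325 to 113288932, minus strand) had 1.33, 4.35, 8.48, 0.485 and 0.393 CPM in Ag+Costim, 0 to 0.689 in Ag, and 2 counts in Naive 5. Ighg3 (chromosome 12, 113356224 to 113361232, minus strand) ranged up to 2.18 CPM in Ag+Costim and 1.76 in Ag, with 3 Naive counts. Of the 4 IgG genes, Ighg2c alone had a count in each Ag+Costim library. Ighg2b was higher in Ag+Costim than in Naive (log2 fold change 5.60, SE 1.66, edgeR FDR 0.0189), as was Ighg3 (log2 fold change 4.31, SE 1.33, edgeR FDR 0.022). Ighg2b lost its call without Naive 1 or Naive 4 (FDR up to 0.0522) and Ighg3 without Ag+Costim 4, Naive 1, Naive 3 or Naive 4 (FDR up to 0.0605). Both were also lost with lane as a term (FDR 0.0764 and 0.0601), and Ighg2b with the replicate block. Neither was called against Ag (FDR 0.586 and 0.982) or between Ag and Naive (FDR 0.1 and 0.0674). Ighg2c did not pass the count filter, and neither did Ighg1 (chromosome 12, 113325240 to 113330523, minus strand), whose 8 Ag counts were all in Ag 3 and whose 7 Ag+Costim counts were all in Ag+Costim 3.

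Secreted ends made up most switched transcripts in Ag+Costim and fewer in Ag. They held 82, 100, 96, 77.4 and 93.7% of switched transcript counts in Ag+Costim 1 to 5. In Ag the share was 19.4% in Ag 1, 0% in Ag 3, 44.4% in Ag 4 and 66.7% in Ag 5, while Ag 2 had no switched count. In Ag 3 this was 0 of 31 counts and in Ag 5 12 of 18. Each Ag+Costim library was above each Ag library, but the Ag shares rest on few counts. The 9 switched counts of Naive 5 were all on membrane ends.

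**Figure D2:**
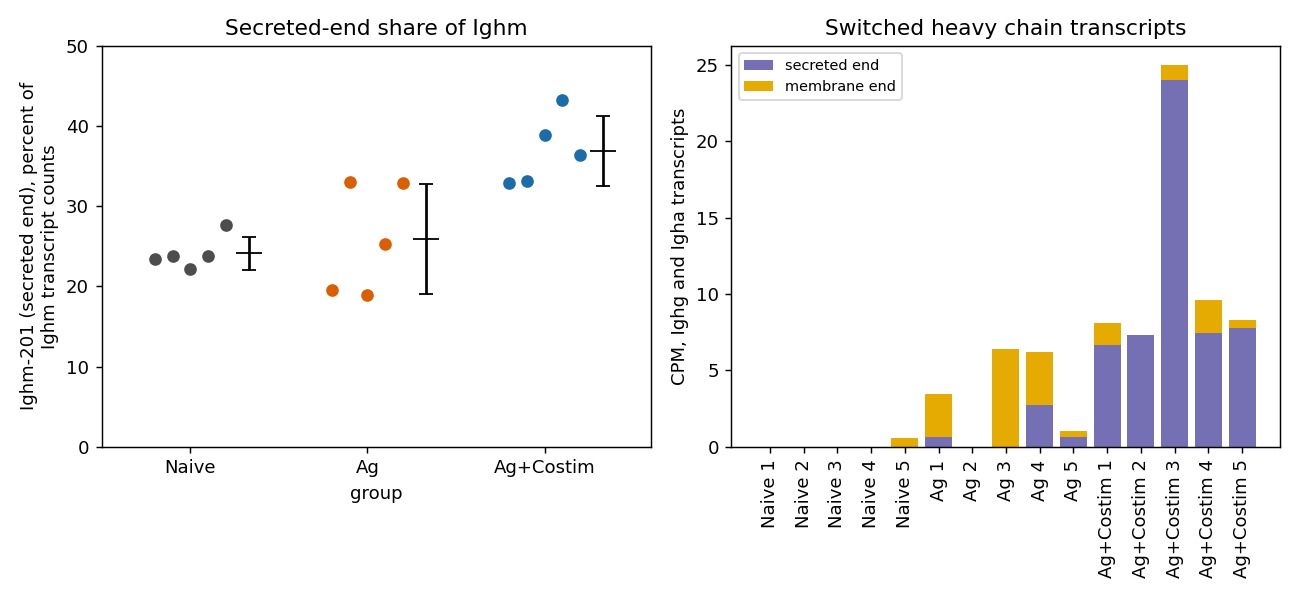
Left, the percent of Ighm transcript counts on the secreted-end Ighm-201 in each library (points) with the group mean and SD (bars), n = 5 per group. Right, summed CPM of Ighg and Igha transcripts by library, split into secreted and membrane ends. The Ag+Costim mean is 36.9% on the left, and secreted ends fill most of each Ag+Costim bar on the right.

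Light chain constant genes were low in Naive and higher in both transferred groups. Igkc (chromosome 6, 70726435 to 70726966, plus strand), the single kappa constant gene, had 1.92, 5.37, 0.633, 0.914 and 12.9 CPM in Naive 1 to 5, 89.9, 14.4, 273, 188 and 23.6 in Ag 1 to 5 and 59.5, 46.3, 94.7, 53.3 and 50.9 in Ag+Costim 1 to 5. All 10 transferred libraries lay above all Naive libraries, although Ag 2 stood close to Naive 5. Ag was the widest group, with Ag 3 the highest library and Ag 2 the lowest. Igkc was higher in Ag than in Naive (log2 fold change 4.79, SE 0.94, edgeR FDR 0.0136) and in Ag+Costim than in Naive (log2 fold change 3.93, SE 0.90, edgeR FDR 0.00768). Without Ag 3 and Naive 5 the log2 fold changes were 5.32 and 5.11, and within lane 3 the second was 3.74 (FDR 0.0306). With lane as a term both calls were lost (FDR 0.609 and 0.052), with log2 fold changes of 4.45 and 3.71, and the first was also lost in a fit of the Ag and Naive libraries alone. Ag+Costim and Ag did not differ by the test (log2 fold change -0.87, SE 0.79, edgeR FDR 0.492). Per kilobase of exon, the mean level of Igkc was 8.17 CPM in Naive, 221 in Ag and 115 with costimulation, against 442, 445 and 292 for Ighm. A lincRNA, Gm30211, overlaps Igkc and the kappa joining segments on the same strand, so reads there may belong to either.

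The 3 lambda constant members followed Igkc in direction against Naive. Iglc2 (chromosome 16, 19198396 to 19200351, minus strand) had 0, 0.248, 0.119, 0 and 0.329 CPM in Naive, 26.2, 2.85, 78.7, 31.6 and 1.0 in Ag and 2.85, 1.86, 5.61, 3.52 and 4.52 with costimulation, in replicate order. Iglc3 (chromosome 16, 19065230 to 19065681, minus strand) ranged over 0 to 1.19, 1.17 to 48.1 and 1.4 to 4.21 CPM, and Iglc1 (chromosome 16, 19061618 to 19062071, minus strand) over 0 to 0.305, 0.50 to 18.7 and 2.95 to 5.9. Ag 1, 3 and 4 were the 3 highest libraries for each of them, and Ag 2 and Ag 5 were below every Ag+Costim library for Iglc1. All 3 were higher in Ag than in Naive (log2 fold changes 5.70 to 7.63, edgeR FDR 0.00614 to 0.0119) and in Ag+Costim than in Naive (3.18 for Iglc3 to 5.18 for Iglc1, edgeR FDR 0.00332 to 0.0236). Against Ag, Iglc2 and Iglc3 had log2 fold changes of -2.84 and -2.52 (edgeR FDR 0.0844 and 0.102) and were not called, except by DESeq2 or without Ag 2 or Ag 5. Iglc1 had -0.85 (FDR 0.454). The Iglc3 call in Ag+Costim against Naive was lost without Naive 1, 3 or 4 (FDR up to 0.0606).

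Lambda genes held 13.4 to 39.2% of light constant counts in Ag and 11.8 to 20.8% in Ag+Costim. In Naive the share ran from 3.45 to 36%, on as few as 16 counts. Light constant genes together held 0.0922 to 2.54% of all constant counts in Naive, 3.44 to 34.1% in Ag and 9.04 to 13.6% with costimulation. An antisense gene, 2010309G21Rik, overlaps Iglc1, Iglc3 and Iglv1, and the libraries do not record strand.

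Variable segments, the part of the chain that binds antigen, were a small share of counts everywhere and smallest in Naive. Summed over 160 members, Naive 1 to 5 had 3.16, 10.4, 1.74, 4.42 and 8.17 CPM, Ag 1 to 5 had 82.7, 6.23, 262, 156 and 6.11 and Ag+Costim 1 to 5 had 38.1, 21.5, 83.5, 51.5 and 43.1. Ag 2 and Ag 5 were inside the Naive range, and every Ag+Costim library was above it. As a share of variable plus constant counts, variable members held 0.323, 1.21, 0.162, 0.461 and 1.41% in Naive, 5.74, 1.09, 17.6, 9.03 and 0.975% in Ag and 5.52, 3.56, 9.38, 8.97 and 6.37% with costimulation. The means were 0.713% ± 0.559, 6.89% ± 6.88 and 6.76% ± 2.43 (SD, n = 5), with the SD of Ag as large as its mean. The lowest share was in Naive 3 (44 of 27162 counts, 0.162%, 95% Wilson interval 0.121 to 0.217) and the highest in Ag 3 (1275 of 7239 counts, 17.6%, 95% Wilson interval 16.8 to 18.5). Without Ag 3 the Ag mean was 4.21%.

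Heavy and light loci had different shares. In the heavy locus, variable members held 0.114 to 0.566% of variable plus constant counts in Naive, 0.159 to 7.62% in Ag and 1.16 to 3.25% with costimulation. In the 2 light loci the same share was 23.7 to 60.00%, 15.9 to 32% and 22.5 to 37.6%. The light share overlapped between all 3 groups, and the heavy share of every Ag+Costim library was above every Naive library. The Naive light shares rest on 38 to 298 counts per library, so their intervals are wide (in Naive 3, 13 of 38 counts, 34.2%, 95% Wilson interval 21.2 to 50.1). In Naive, heavy variable segments summed to 1.23 to 4.79 CPM beside 557 to 1072 CPM of Ighm and Ighd.

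Fewer variable segments were seen in Naive, which had 398 variable counts in all against 4389 in Ag and 3634 with costimulation. In Naive 85 of 160 variable members had a count, 3 of them in all 5 libraries, and 75 had none. In Ag 159 had a count, 6 in all 5 libraries, and in Ag+Costim 155, with 41 in all 5. At an equal depth of 40 variable counts, the expected number of distinct segments was 16.5 to 27.5 in Naive, 15.5 to 32.2 in Ag and 26.8 to 29.8 with costimulation. The Naive and Ag libraries spread widely at that depth, and the Ag+Costim libraries were close to each other. The top 5 segments held 16.7% of variable counts in Ag 3 and 60.9% in Ag 5. No single segment held over 41.3% in any library. Heavy segments made up 52% of variable counts in Naive, 24.2% in Ag and 25.4% with costimulation.

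Iglv1 (chromosome 16, 19085017 to 19085500, minus strand) was the most counted variable segment and the top one in each Ag+Costim library. It had 0, 0.0826, 0, 0.152 and 0 CPM in Naive 1 to 5, 7.73, 0.454, 9.45, 11.5 and 0.444 in Ag and 2.73, 2.25, 5.48, 6.43 and 4.52 in Ag+Costim. Every transferred library was above every Naive library. It was higher in Ag (log2 fold change 6.95, SE 1.12, edgeR FDR 0.00749) and in Ag+Costim (log2 fold change 6.63, SE 1.12, edgeR FDR 0.00238) than in Naive, and within lane 3 its FDR was 0.0184. Iglv2, its close copy, was higher in Ag (log2 fold change 6.16, SE 1.53, edgeR FDR 0.0309) and in Ag+Costim (log2 fold change 5.20, SE 1.5, edgeR FDR 0.0173). Its 3 counts over all Naive libraries compare with 144 and 128. Iglv3 had 0 counts in Naive, 1.34, 0.649, 5.55, 2.14 and 0 CPM in Ag 1 to 5 and 0.38, 0.155, 0.267, 0.182 and 0 in Ag+Costim, and did not pass the filter.

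Among kappa segments, Igkv1-110 (chromosome 6, 68270485 to 68271267, plus strand) and Igkv1-117 (chromosome 6, 68121046 to 68121827, plus strand) had the highest mean level. Igkv1-110 had 0, 0, 0, 0.152 and 0.198 CPM in Naive 1 to 5, 1.15, 0.195, 9.04, 17.8 and 0 in Ag and 0.761, 0.466, 4.08, 2.85 and 0.393 in Ag+Costim, and 291 Ag counts came mainly from Ag 4, which alone had 232. It was higher in Ag (log2 fold change 6.25, SE 1.60, edgeR FDR 0.0343) and in Ag+Costim (log2 fold change 4.67, SE 1.56, edgeR FDR 0.0285) than in Naive. Its calls were among the less stable, since the first was lost without Ag 4, Ag+Costim 1 or Ag+Costim 4 and the second without Ag+Costim 3, and both without any single one of Naive 1 to 4 (FDR up to 0.0985 and 0.0694). Igkv1-117 had 5 Naive, 189 Ag and 134 Ag+Costim counts, and was called higher in both transferred groups (FDR 0.0355 and 0.0222). Its call in Ag was lost under 12 of 23 alternatives, among them without any single one of Ag+Costim 1 to 5 or Naive 1 to 4 (FDR up to 0.101), and its call in Ag+Costim without Naive 1, 3 or 4 (FDR up to 0.0575) and with lane as a term.

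Several kappa segments had no count in any Naive library. Over the group totals and against the floor of 3 Naive counts, the levels of Igkv10-96, Igkv19-93, Igkv1-135 and Igkv14-111 were at least 38.5, 38.9, 33.8 and 28.1 times higher in Ag. The bounds for Ag+Costim were 32.3, 17, 29.1 and 31.9 in the same order. All 4 were called in both comparisons (FDR 0.0205 to 0.037 in Ag, 0.0092 to 0.0174 in Ag+Costim), although Ag 5 had none of 3 of them. Without a Naive count they could pass the count filter only through transferred libraries, so these calls give no support by themselves. The Ag call of Igkv10-96 was lost under 13 of 23 alternatives, among them without Ag 3, any one Ag+Costim library or any one of Naive 1 to 4 (FDR up to 0.0883). The Ag calls of the other 3 were lost without Naive 1, 3 or 4 (FDR up to 0.0717) and with lane as a term, which also ended the 4 calls in Ag+Costim (FDR 0.052 to 0.0609). Igkv17-121, with 0, 74 and 45 counts in Naive, Ag and Ag+Costim, was called in both as well (FDR 0.0312 and 0.0181), with the same limit. Igkv12-44 was called in Ag and not in Ag+Costim (FDR 0.0499 and 0.0627), and Igkv6-23 and Igkv16-104 in Ag+Costim and not in Ag (FDR 0.0143 and 0.0127, against 0.0597 and 0.0619 in Ag). Igkv16-104 had 0 Naive counts, so the same limit holds for its call. The Ag call of Igkv12-44 was lost under 17 of 22 alternatives, among them library totals without TMM and leaving out any one of 12 libraries (FDR up to 0.139). For these 3 no difference between Ag+Costim and Ag passed (FDR 0.352, 0.812 and 0.593).

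Heavy variable segments were rarer than kappa segments in the transferred groups. The 5 with the highest mean level were Ighv1-53, Ighv1-64, Ighv1-26, Ighv3-6 and Ighv8-6, and 2 of these, Ighv1-26 and Ighv3-6, passed the count filter. Ighv3-6 had 0 Naive counts, 24 in Ag and 61 in Ag+Costim, with a count in every Ag+Costim library, and was called higher there than in Naive (FDR 0.0206). It too could pass the filter only through transferred libraries, so this call gives no support by itself. Ighv1-26 had 7 Naive counts, all in Naive 5, and 37 and 53 in the other groups, and was called in neither comparison (FDR 0.172 and 0.0736). Without Naive 5 it was called in both. Ighv1-53 had 1, 89 and 23 counts in Naive, Ag and Ag+Costim, 72 of them in Ag 4, and Ighv1-64 had 0, 52 and 36.

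Ighv8-6 (chromosome 12, 115165777 to 115166220, minus strand) had its highest mean level in Naive. It had 1.30, 0.495, 0.712, 1.45 and 0.198 CPM in Naive 1 to 5, 0.668, 0.259, 1.44, 0.383 and 0.0555 in Ag 1 to 5 and 0, 0.0776, 0.334, 0.121 and 0 in Ag+Costim 1 to 5. The groups overlapped, with Ag 3 at the level of the highest Naive library and Naive 5 below Ag 1 to 4. It was the top segment of Naive 1, 3 and 4, with 32.8% to 41.3% of their variable counts, and was not the top segment of any transferred library. It did not pass the count filter and was not tested. Over all 160 variable members, 3 had a higher pooled CPM in Naive than in both other groups: Ighv8-6, Ighv16-1 and Ighv1-56, of which the last 2 were picked out after their values were seen. By the mean CPM of the libraries only Ighv8-6 of these 3 was higher in Naive than in Ag, since Ighv16-1 had 0.120 and 0.136 and Ighv1-56 0.0824 and 0.0946 in Naive and Ag.

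Families of variable segments, named by the number before the hyphen, had different shares of variable counts. The 4 Ighv8 members, of which Ighv8-6 is one, held 17.6% in Naive, 0.82% in Ag and 1.05% with costimulation. The 24 Igkv4 members held 21.4%, 8.91% and 10.04%, and the 6 Igkv1 members 2.76%, 13.6% and 10.5%, in the same order. The 7 Ighv5 members, 175 to 436 kb from Ighm, had 0 Naive counts and 78 and 112 counts in Ag and Ag+Costim. The 5 Ighv2 members, 166 to 373 kb from Ighm, had 21, 45 and 17 counts in Naive, Ag and Ag+Costim. Naive shares rest on 398 counts, and shares of families were not tested.

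**Figure D3:**
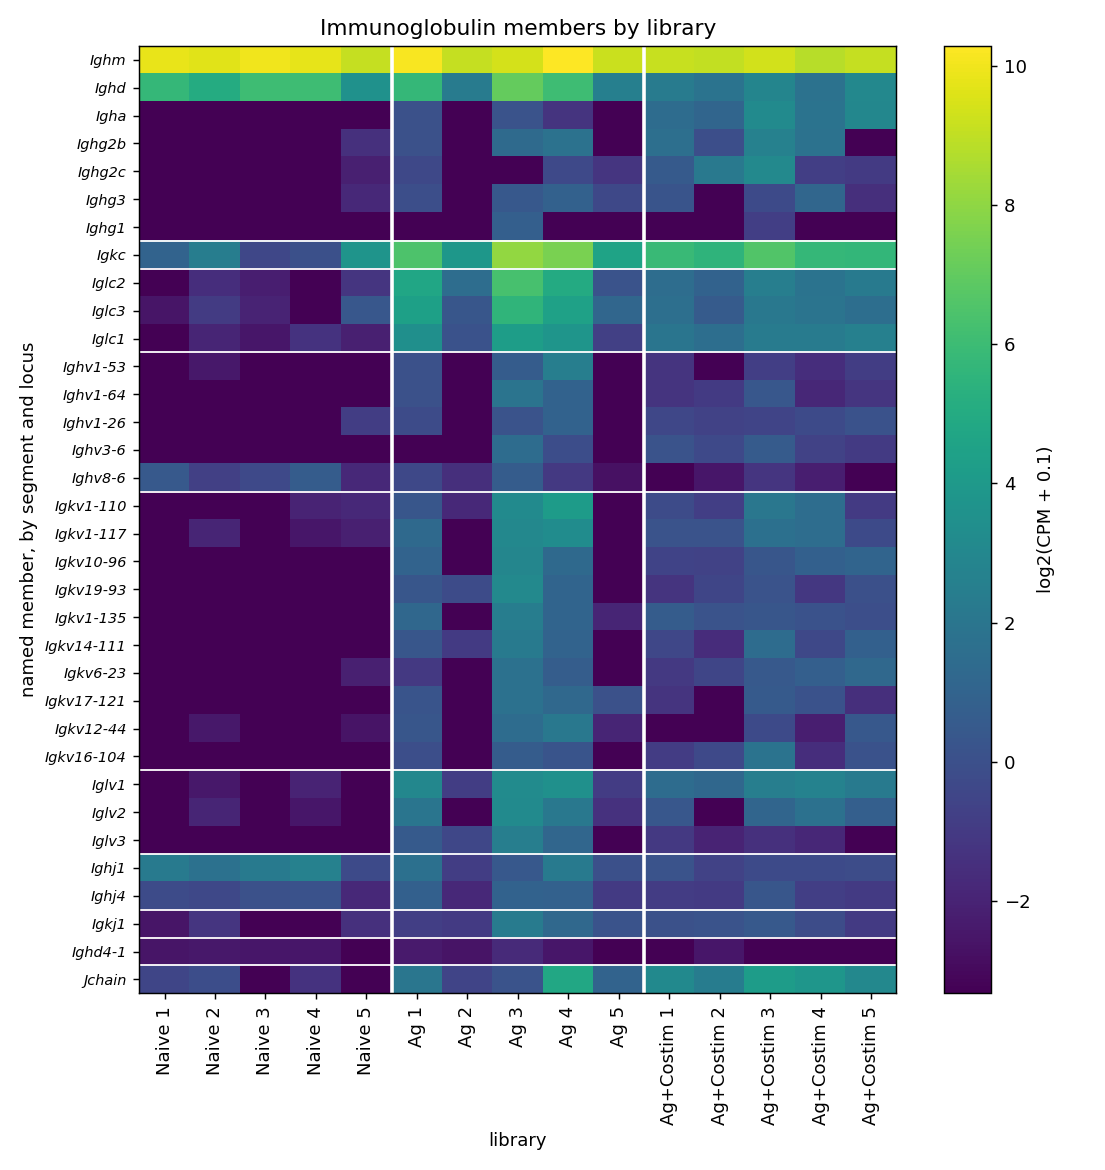
Level of the 34 named members in each library as log2(CPM + 0.1), with rows by segment and locus and white lines between groups. Ighm is bright in every column, light chain rows are dark in Naive, Ag 2 and Ag 5 are darker than Ag 1, 3 and 4, and Ighv8-6 and Ighj1 have their highest means in Naive.

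Joining segments differed by locus. Ighj1 (chromosome 12, 113429781 to 113429833, minus strand), in the heavy locus, had 4.67, 3.22, 4.55, 6.1 and 0.724 CPM in Naive 1 to 5, 3.15, 0.454, 1.23, 4.74 and 0.889 in Ag 1 to 5 and 1.01, 0.543, 0.735, 0.727 and 0.786 in Ag+Costim 1 to 5. Naive 1 to 4 were above all Ag+Costim libraries, and Naive 5 was inside their range. Ighj1 was lower in Ag+Costim than in Naive (log2 fold change -2.15, SE 0.58, edgeR FDR 0.0138), while within lane 3 (log2 fold change -2.16, FDR 0.0552) and with lane as a term (-2.15, FDR 0.0897) the call was lost and the difference was of the same size. It was not called in Ag against Naive (log2 fold change -0.83, SE 0.56, edgeR FDR 0.316) or in Ag+Costim against Ag (log2 fold change -1.32, SE 0.58, edgeR FDR 0.162). Ighj4 had 0.711 ± 0.317 CPM (SD, n = 5) in Naive, 1.18 ± 0.817 in Ag and 0.569 ± 0.319 with costimulation and was called in no comparison (FDR 0.395, 0.842 and 0.346 for Ag against Naive, Ag+Costim against Naive and Ag+Costim against Ag).

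Igkj1 (chromosome 6, 70722562 to 70722599, plus strand), in the kappa locus, moved as Igkc did. It had 0.0686, 0.33, 0, 0 and 0.263 CPM in Naive, 0.477, 0.389, 4.93, 2.3 and 1.0 in Ag and 0.951, 1.01, 1.27, 0.788 and 0.393 with costimulation, in replicate order. It was higher in Ag (log2 fold change 3.81, SE 0.97, edgeR FDR 0.0329) and in Ag+Costim (log2 fold change 2.86, SE 0.94, edgeR FDR 0.0274) than in Naive, but these calls were lost under 11 and 8 of 23 alternatives, in that order. At 38 bases it is shorter than a read. The only diversity member, Ighd4-1, had 5, 4 and 1 counts in Naive, Ag and Ag+Costim and was not tested.

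Jchain (chromosome 5, 88519809 to 88527891, minus strand) was higher in both transferred groups. Naive 1 to 5 had 0.618, 0.826, 0, 0.305 and 0 CPM, Ag 1 to 5 had 4.01, 0.584, 1.03, 28.5 and 1.89 and Ag+Costim 1 to 5 had 8.56, 5.2, 18.1, 13.9 and 8.13. Each Ag+Costim library was above each Naive library, and in Ag the level came mostly from Ag 4. Jchain was higher in Ag than in Naive (log2 fold change 4.47, SE 1.13, edgeR FDR 0.0323), a call that was lost without Ag 4 and without any one of Ag+Costim 1, 4 and 5 and Naive 1, 3 and 4 (FDR up to 0.094), and higher in Ag+Costim than in Naive (log2 fold change 5.19, SE 1.15, edgeR FDR 0.00666), a call kept under all 25 alternatives. Ag+Costim and Ag did not differ by the test (log2 fold change 0.72, SE 0.90, edgeR FDR 0.622).

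The Jchain counts of the groups fell on different transcripts. The coding transcript Jchain-201 had 0 counts in all 5 Naive libraries, 29, 0, 0, 323 and 6 in Ag 1 to 5 and 102, 55, 200, 217 and 97 in Ag+Costim 1 to 5. All 23 Naive counts were on Jchain-202, which the annotation gives as a retained intron, as were those of Ag 2 and Ag 3. With the same floor, Jchain-201 was at least 238-fold higher in Ag+Costim and 155-fold higher in Ag, a bound that was 19.2-fold without Ag 4. It held 73.8 to 94.3% of Jchain transcript counts in Ag+Costim.

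Over all members, 35 of 184 passed the filter on low counts and were tested: 9 constant, 20 variable and 5 joining members and Jchain. A member that passed through the group where it was high had to differ, so the counts here describe these 35 and give no support by themselves. In Ag against Naive, 18 of 35 were higher and 0 lower by edgeR's quasi-likelihood test, where 3.05% and 3.66% of all 17366 genes tested were higher and lower (6.71% either way). For this comparison 29 members passed an unadjusted p under 0.05 in edgeR and 17 an adjusted one in DESeq2, all higher. In either direction, 4980 and 2736 of all 17366 genes did so. In Ag+Costim against Naive, 27 were higher and 2 lower, beside 21.0% and 23.6% of all genes (44.7% either way). In Ag+Costim against Ag, edgeR called 0 members in either direction, beside 0.0288% and 0.00576% of all genes (0.0346% either way). Here 6 of 35 had an unadjusted p under 0.05 in edgeR, beside 4647 of all 17366 genes. DESeq2 called 4 of 35, Igha higher and Ighd, Iglc2 and Iglc3 lower, beside 2533 of all 17366 genes. Both of these member shares were below the shares of all genes. The comparisons with Naive share their Naive libraries. The median log2 fold change of the 35 was 5.51, 4.67 and -0.85 in these 3 comparisons, beside 0.08, -0.08 and -0.10 over all genes. With the 10 members that had no Naive count set to their lower bound, the first 2 medians were 4.73 and 4.31.

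The calls differed by class. In Ag against Naive all 4 light constant members, 9 of 15 kappa and both lambda variable members, both kappa joining members and Jchain were higher, and none of the 5 heavy constant, 3 heavy variable or 3 heavy joining members was called. Heavy variable members, Igha, Ighg2b and Ighg3 still had log2 fold changes of 2.81 to 6.30 there (FDR 0.0619 to 0.172), beside 3.18 to 8.10 for called members. Ighm, Ighd and the heavy joining members had -0.83 to 0.75. Of variable members, 3 of 71 heavy and 15 of 86 kappa ones were tested. Against Naive, the higher members of Ag+Costim also took in 3 of 5 heavy constant and 2 of 3 heavy variable members, and the lower ones were Ighd and Ighj1. CPM ranges did not overlap for 5 members in Ag against Naive, all higher in Ag (1.36% of all genes): Igkc, Igkj1, Iglc1, Iglc2 and Iglv1. None was lower in every Ag library (2.26% of all genes). Ag+Costim and Naive ranges did not overlap for 22 members that were higher (18.3% of all genes) and 1, Ighd, that was lower (27.3%). Igha was higher in every Ag+Costim library than in any Ag library (4.84% of all genes), and 0 members were lower in every library (2.2%).

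Single libraries moved the first of these counts, and the calls over all genes moved with it. The 18 calls in Ag against Naive were 5 without Naive 1, 3 or 4, and 34 without Naive 5, out of 44 to 47 members tested. All genes called were 1165 in the main fit. They were 255 of 18006, 267 of 18085 and 273 of 18014 without Naive 1, 3 and 4, and 3871 of 17981 without Naive 5. With lane as a term, which ties Ag to Naive through the Ag+Costim libraries of both lanes, 0 were left, with 21 of 35 at an unadjusted p under 0.05 and log2 fold changes of 4.45 for Igkc and 7.62 for Iglv1, and without Ag 3 and Naive 5 there were 21. Over all genes, 0 of 17366 were called with lane as a term, with 1285 at an unadjusted p under 0.05. Without Ag 3 and Naive 5, 3945 of 17263 were called. In a fit of the 10 Ag and Naive libraries alone 8 members passed the filter and 0 were called, with 4 at an unadjusted p under 0.05. Of all 16742 genes in that fit, 6 were called and 2899 had an unadjusted p under 0.05. The 29 calls in Ag+Costim against Naive were 22 to 41 without single libraries, 31 without Ag 3 and Naive 5, 15 of 22 tested within lane 3, and 6 with lane as a term. The 6 were all higher. All genes called in Ag+Costim against Naive were 7755 in the main fit and 3892 to 9252 without single libraries. They were 10103 of 17263 without Ag 3 and Naive 5, 6343 of 18287 within lane 3 and 943 of 17366 with lane as a term.

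**Figure D4:**
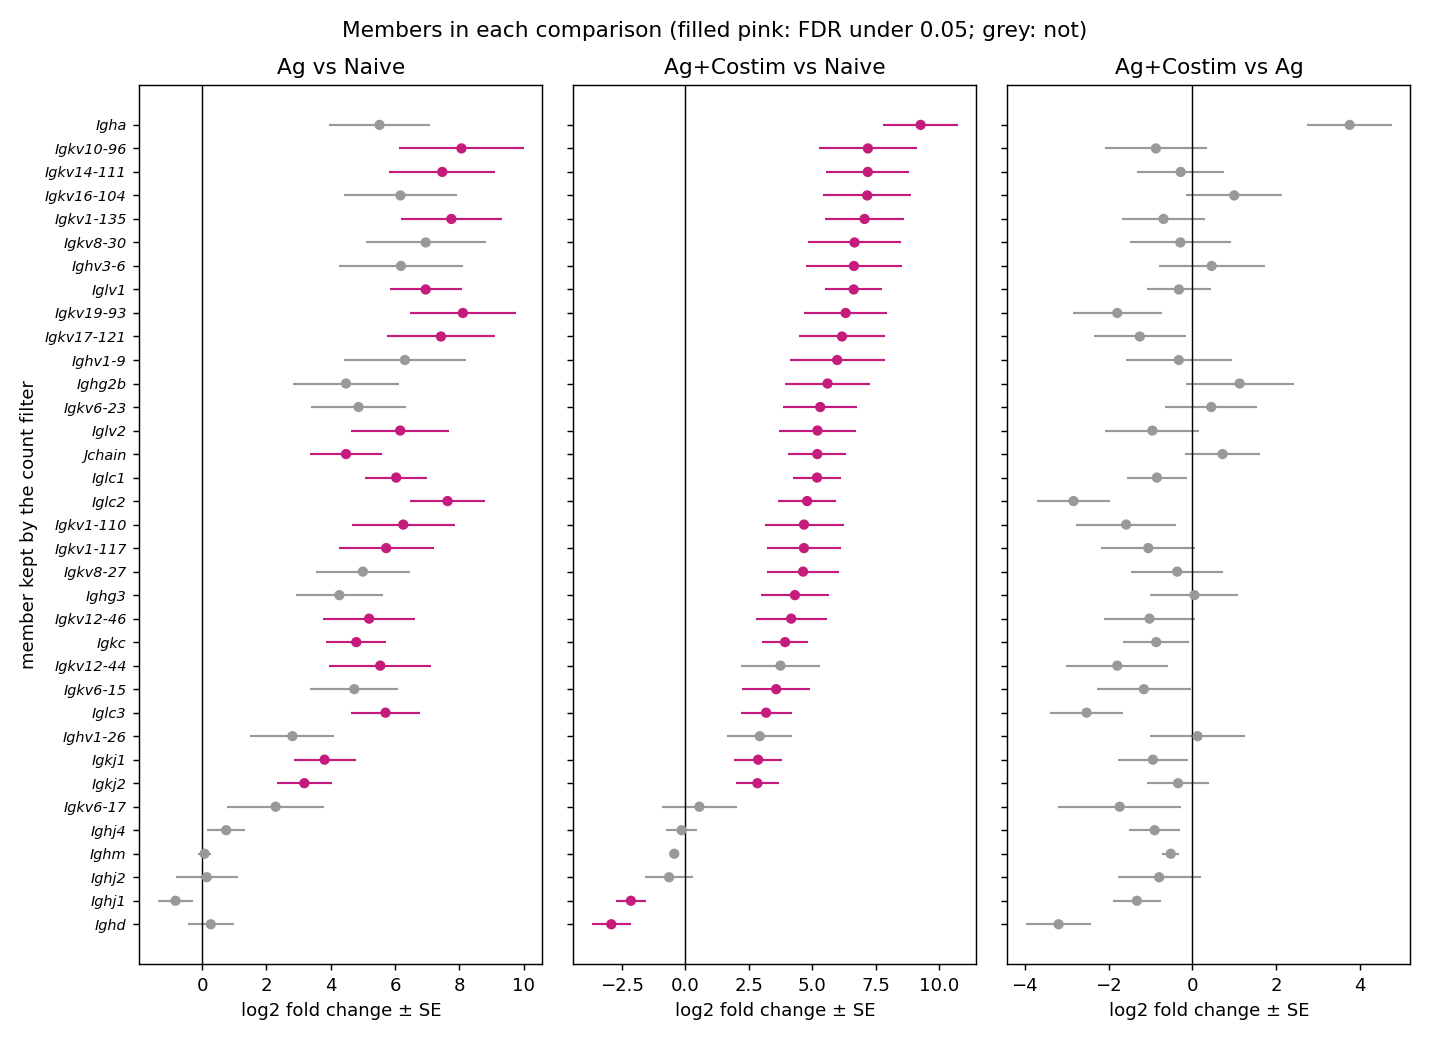
Log2 fold change with its SE (derived from the test's F statistic) for the 35 tested members in each comparison (the panels differ in scale). Pink marks an edgeR FDR under 0.05 and grey the rest. Light chain and variable members sit to the right of 0 against Naive, Ighd and Ighj1 to the left in Ag+Costim, and no member is pink in Ag+Costim against Ag. Fold changes of the 10 members without a Naive count depend on the model's prior.

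Within Ag, the B cell marker sum was high in the same libraries as the member sum, and the plasma cell marker sum was not. Members other than Ighm and Ighd summed to 12.6, 22.8, 9.69, 14.3 and 25.6 CPM in Naive 1 to 5, 249, 27.9, 708, 464 and 39.1 in Ag and 129, 91, 243, 145 and 127 in Ag+Costim. The 16 B cell markers summed to 46.1 to 51 CPM in Naive and 43.6 to 80.1 in Ag+Costim. In Ag they summed to 319.6, 46.4, 717, 397 and 47.9 in Ag 1 to 5. The same 3 Ag libraries, 1, 3 and 4, were high for both sums, and Ag 2 and Ag 5 were at the Naive level of the B cell markers. Every Ag+Costim library was above every Naive library for the member sum, and for the B cell marker sum the ranges overlapped.

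The defining B cell markers were not at 0 in any group as a whole. Pax5, the B lineage transcription factor, was at 0 in Naive 3, Ag 2, Ag 5 and Ag+Costim 4. Of the list, Cd79b and Pou2af1 held most of the Naive sum, with 23 and 11.4 CPM on average. The 11 plasma cell markers summed to 232 to 479 CPM in Naive, 279.5 to 549.8 in Ag and 466 to 554 with costimulation, mostly from Txndc5, Xbp1 and Creld2, secretory pathway genes that T cells also express. Among Ag libraries this sum was highest in Ag 2 and Ag 5 (549.8 and 522 CPM), which had the lowest member sums. Mzb1, a chaperone of antibody-secreting cells, was at 0 in every Naive library, Ag 2, Ag 5 and Ag+Costim 4, and highest at 6.89 CPM in Ag 4, 1.8 in Ag+Costim 3 and 1.64 in Ag 3, of which the first 2 had the most Jchain and Ag 3 had 1.03 CPM of it. Ag+Costim 4 had 13.9 CPM of Jchain. Sdc1 and Tnfrsf17 of the same list were not highest with costimulation. Sdc1 averaged 1.83, 0.953 and 0.792 CPM in Naive, Ag and Ag+Costim, and Tnfrsf17 averaged 0.172, 0.315 and 0.102. By edgeR, 10 of the 14 B cell markers that passed the filter were called higher in Ag than in Naive, where 3.05% of all genes were, and 3 (Fcmr, Ly6d and Cd22) in Ag+Costim than in Naive, or 21.4% of those tested beside 21.0% of all genes. Of 9 plasma cell markers tested, 0 were called in Ag against Naive, where 3.05% of all genes were higher. In Ag+Costim against Naive 4 were higher, or 44.4% of those tested beside 21.0% of all genes. They were Xbp1, Creld2, Txndc5 and Irf4 (log2 fold changes 0.72 to 1.57, edgeR FDR 0.0105 to 0.0467). The part of these cells in the member results was not tested.

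**Figure D5:**
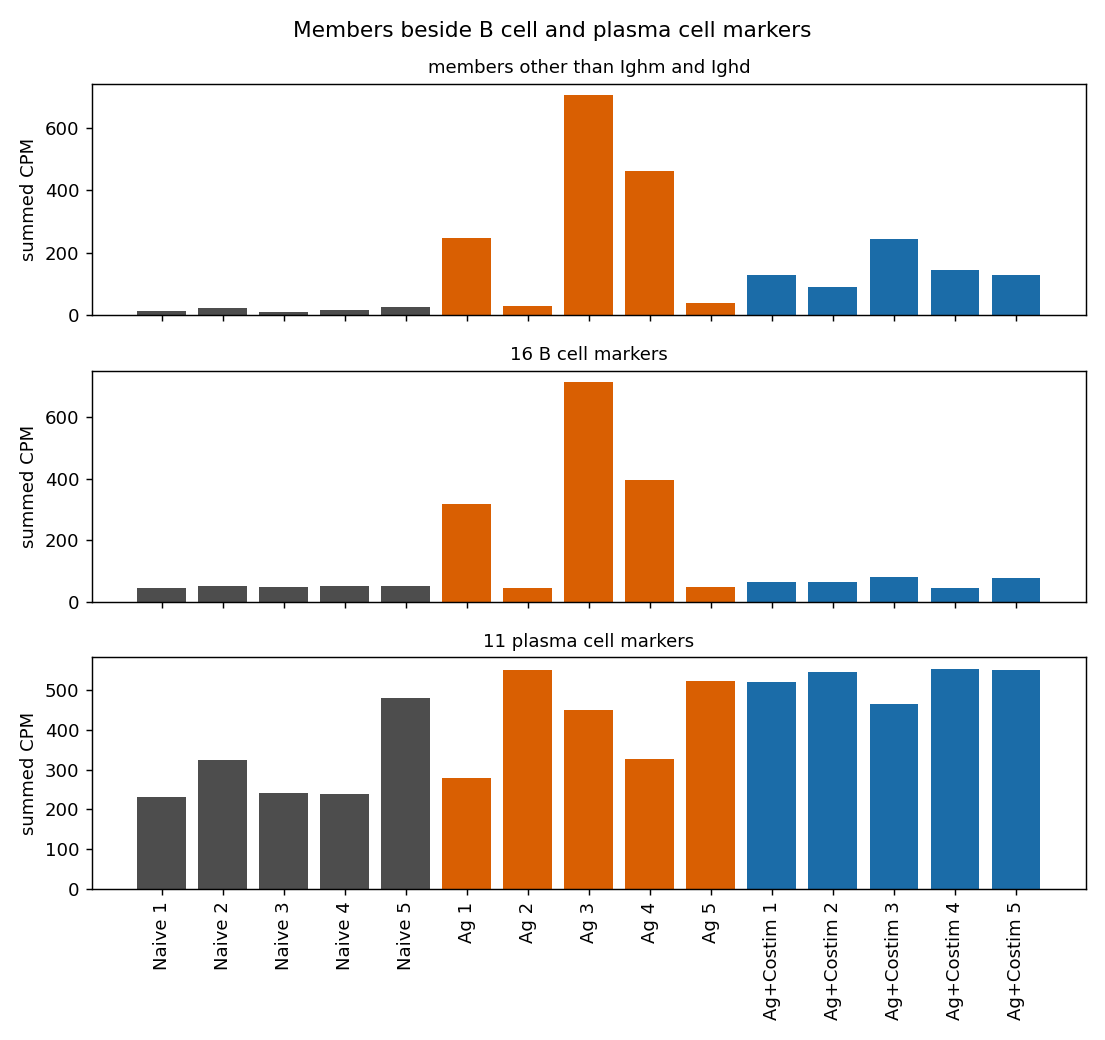
Summed CPM by library of the members other than Ighm and Ighd (top), 16 B cell markers (middle) and 11 plasma cell markers (bottom), with bars coloured by group. Ag 1, 3 and 4 are high in the upper and middle panels, and Ag+Costim is above Naive in the upper panel with no such step in the middle one.

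The other marker lists gave these ranges. The 6 early B cell genes summed to 1.38 to 6.86 CPM in Naive, 0.944 to 11.7 in Ag and 0.667 to 1.34 with costimulation, the last with no count of Dntt. The 4 MHC class II genes summed to 31.2 to 209, 93.3 to 1534 and 127 to 308 CPM, highest in Ag 3. The myeloid and dendritic list reached 258 CPM in Ag and 220.2 in Ag+Costim. The 6 erythroid genes summed to 1238 CPM in Ag 3 and at most 168 in any other library. The 3 CD4 T cell genes stayed at or below 22.4 CPM and the 3 NK genes at or below 99.1 CPM.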

How the data were processed

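Bulk RNA was sequenced from 15 libraries, 5 each of Naive, Ag and Ag+Costim OT-I CD8+ T cells, made with the SMART-Seq v4 and Nextera XT kits, which do not mark strand, as single reads. The sequencing core's deposited sheet gives a read length of 50 bases, used here, and the study's methods state a longer one. Per the study's methods and the submitters' processing notes, the authors aligned reads with HISAT2 2.1.0 to mm10, used SAMtools 1.9, and obtained estimated counts per gene and per transcript with StringTie 2.1.0, before using DESeq2 1.30.1 in R 4.0.5. The deposited gene and transcript tables hold whole-number counts, which StringTie estimates from coverage. Its read length setting and the annotation release are not given in the sources used here. A deposited table of FPKM values was not used, because its columns for Ag 1 and Naive 5 were identical. The count of sequenced reads and the lane of each library come from the sequencing core's deposited sheet.

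The members and lists were chosen with earlier results of these data known. Genes were matched by identifier to GENCODE M21 on GRCm38 (55536 of 81881 entries, with 0.0818% of counts unmatched). CPM values are counts per 1000000 of a library's total count. Genes kept by filterByExpr (17366) were fitted with edgeR 4.0.16 (TMM, robust quasi-likelihood test, 1 coefficient per group over 15 libraries, Benjamini-Hochberg FDR under 0.05) in R 4.3.3 with limma 3.58.1. The SE of a log2 fold change was derived from the test, as its absolute value over the square root of the F statistic. DESeq2 1.42.0 was an alternative. The scripts were tested on simulated data. Shares of single libraries carry 95% Wilson intervals and folds against a group at 0 use a floor of 3 counts over that group, and both cover counting error only. The study's methods call each library a biological replicate. The closest replicate pair of any group differed by a chi-square of 5.62 per degree of freedom, so none was counted as a repeat. Named are Jchain, every constant member, the top 5 variable members of each locus, the top 3 joining and diversity members by mean CPM, and of further called variable members the top 3 of each comparison. Marker lists were of B, plasma, early B, CD8 T, CD4 T, myeloid and dendritic, erythroid and NK cells, and of MHC class II genes. Values of 2 further genes of the lists are not reported here. Alternatives were other normalizations, filters, thresholds and samples, a replicate block, a lane term, fits within a lane and leaving out each library.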

Additional observations from a re-analysis of the deposited data

Results flagged for a closer look

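Of 115 groups of 5 libraries tested for a library far from the other 4, by a gap over 0.71 of the group's range, 19 had one. The rule flags about 1 in 20 groups of independent, normally spread values. Low counts with many zeros, and sums that share counts with members, are not such values, so no excess can be read from the 19. Several rest on a few counts in 1 library with the others at 0.

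Naive 5 stood apart most often among Naive libraries. It alone had counts of Ighg2b (0.263 CPM), Ighg2c (0.132 CPM), Ighg3 (0.198 CPM), Ighv1-26 (0.461 CPM) and Igkv6-23 (0.132 CPM), so that its switched heavy constant sum was 0.593 CPM with 0 in the other Naive libraries. It had 0 CPM of Ighd4-1 where the others had 0.0686 to 0.0826. In Naive 2, Ighv1-53 was at 0.0826 CPM with the others at 0.

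Among Ag libraries, Jchain was at 28.5 CPM in Ag 4 against 0.584 to 4.01 in the others, and Ighv1-53 was at 5.51 CPM in Ag 4 against 0 to 1.44. In Ag 3, Ighg1 was at 1.64 CPM with the others at 0, and Igkv19-93 at 8.22 CPM against 0 to 1.99.

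Ag+Costim 3 was the highest library of its group for several members. It had 94.7 CPM of Igkc (others 46.3 to 59.5), 25.0 CPM of switched heavy constant genes (others 7.30 to 9.64), 3.47 CPM of Igkv16-104 (others 0.243 to 0.983), 1.203 CPM of Ighv1-64 (others 0.182 to 0.388), 1.14 CPM of Ighj4 (others 0.388 to 0.485) and 0.468 CPM of Ighg1 (others 0). In Ag+Costim 2, Ighd4-1 was at 0.0776 CPM with the others at 0.

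Outside the members, 164 annotated immunoglobulin pseudogenes summed to 5.34 CPM in Ag 1, 39.0 in Ag 3 and 4.82 in Ag 4, above the Naive range of 1.11 to 4.71 CPM. Ag 3 also had the lowest share of reads counted (16.9%).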

How the results depend on the processing

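In Ag against Naive, the 18 members called became 10 of 184 with no filter on low counts, 0 of 8 in a fit of the 10 libraries alone and 0 with lane as a term, and among named members 16 became 9, 0 and 0. Leaving out single libraries gave 5 to 34 members (11 without Ag+Costim 4, 5 without Naive 1, 3 or 4, 34 without Naive 5) and 5 to 20 named ones (10 without Ag+Costim 1, 9 without Ag+Costim 4). In Ag+Costim against Ag, the count of 0 by edgeR became 4 with DESeq2 and 1 without Ag 3 and Naive 5, for members and named members alike, and ranged from 0 to 4 without single libraries, with 4 without Ag 2 or Ag 5. Ag+Costim against Naive had 29 members called, which became 12 of 12 in a fit of the 10 libraries alone, 6 with lane as a term and 15 of 22 within lane 3, and 22 named ones became 12, 6 and 14. Fewer members pass the filter in the smaller fits, and the cause of the other changes was not tested. Over all genes, calls in Ag against Naive went from 1165 to 208 of 48994 with no filter, 6 of 16742 in the 10 libraries alone and 0 with lane as a term. In Ag+Costim against Ag they went from 6 to 2533 with DESeq2, 989 without Ag 3 and Naive 5, and 2679 and 3573 without Ag 2 and Ag 5. In Ag+Costim against Naive they went from 7755 to 10205 of 15751, 943 and 6343 in the order above. Single libraries gave 22 to 41 members and 17 to 27 named ones. Ag and Naive share no lane, so no value within a lane could be had.

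The replicate numbers were not stated to pair animals. Correlations of same-numbered libraries' deviations ran from -0.349 to 0.567, with 6 of 15 over 0.1, so the numbers were not taken to pair them. With the replicate block, members called were 9, 0 and 25 in Ag against Naive, Ag+Costim against Ag and Ag+Costim against Naive, and named ones 9, 0 and 20. Of all 17366 genes, 1660, 0 and 7833 were called with it in the same order. The block turned the log2 fold change of Ighd in Ag against Naive to -0.21, and in Ag+Costim against Ag those of Ighg3 to -0.039, Igkv10-96 to 0.27, Igkv1-135 to 0.25 and Iglv1 to 0.28.

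Other signs that turned were all of uncalled differences. In Ag against Naive, Ighm turned to -0.011 with no filter and -0.13 with lane as a term (-0.076 to 0.19 without single libraries), and Ighd to -0.12 with no filter and -0.68 without Ag 3 and Naive 5 (-0.51 to 0.55). In Ag+Costim against Ag, Ighg3 turned to -0.050 on library totals without TMM, -0.46 with lane as a term and -0.45 within lane 2 (-0.57 to 0.43), and Ighv1-26 to -0.0097, -0.12 and -0.12 (-0.22 to 0.92). Igkv10-96 turned to 0.35 and Igkv1-135 to 0.21 without Ag 3 and Naive 5 (-1.20 to 0.34 and -0.99 to 0.20), and Iglv1 to 0.044 with no filter (-0.62 to 0.069). Library totals without TMM moved the all-gene median of the log2 fold change for Ag+Costim against Naive from -0.08 to -0.23. The fits without Ag 3 and Naive 5, with TMM on totals of all genes, and the secreted shares within a lane were chosen after seeing the data.

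The variable share per kilobase was 3.43% in Naive, 18.3% in Ag and 21.8% with costimulation, and from counts it was 0.54% to 0.85%, 4.21% to 8.37% and 6.10% to 7.56% without single libraries. The CPM summed over all members stayed within 1 SD under every alternative run (850 to 974, 1042 to 1343 and 649 to 729.9 without single libraries). The secreted share of Ighm exceeded Ag by 9.03 points within lane 2 and Naive by 15.7 points within lane 3, without passing. Without single libraries the differences were 9.23 to 12.8 points over Ag, 11.2 to 13.8 over Naive and -0.0042 to 3.52 for Ag over Naive. Members other than Ighm and Ighd had 184 to 389 counts together in a Naive library, so Naive levels of single members are imprecise.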

Other observations

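The T cell receptor variable genes, the counterpart of the immunoglobulin variable segments in T cells, summed to 1243 to 2109 CPM over 144 annotated genes in Naive, 1067 to 2792 in Ag and 997 to 1387 with costimulation. Immunoglobulin variable members summed to at most 262 CPM in any library. The lowest T cell receptor sum among Ag libraries was in Ag 3, which also had the highest immunoglobulin variable sum. The other Ag libraries did not follow that order. Ag 1 and Ag 4 had 2601 and 2792 CPM of T cell receptor variable genes beside 82.7 and 156 CPM of immunoglobulin variable members. Ag 2 and Ag 5 had 1398 and 1442 beside 6.23 and 6.11.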
